A study of Homo sapiens with 36 samples.

Results

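The tripartite motif (TRIM) genes are described here across PMA-differentiated THP-1 cells of IRG1 KO and WT genotype. They were taken as every protein-coding row of the deposited expression table whose current symbol is TRIM followed by a number, with or without a closing letter. This gave 53 genes of 21599 rows, out of 73 protein-coding genes of that name in the RefSeq annotation, and the other 20 were not analysed here. Of the 53, 52 passed the filter on low values and were tested. TRIM55, a muscle gene, was not: it reached the floor of 3.32 in 2 libraries, and its values ran between 0 and 4.56 with a median of 0.90.

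TRIM proteins share an N-terminal arrangement of a RING finger, B-boxes and a coiled coil, followed by a C-terminal part that differs between subfamilies and recognises the substrate or partner. The RING finger makes most of them ubiquitin ligases, which attach ubiquitin to other proteins or to themselves, and a few members without a RING act as adaptors. In macrophages several members are known for restricting viruses, for feeding or restraining the pathways of RIG-I, cGAS and Toll-like receptors, and for being induced by interferon.

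The study asked what itaconate, the product of IRG1, does to cytokine production and ubiquitination in human macrophages. It measured total RNA by RNA-seq in 36 libraries of THP-1, a human monocytic leukaemia line, in 12 groups of 3 libraries. All cells had been treated for 72 h with 100 nM PMA, which turns THP-1 monocytes into adherent macrophage-like cells, so the groups given vehicle carry that treatment too. IRG1 KO cells and WT cells were each given 200 ng/mL LPS together with 200 ng/mL interferon-γ, or vehicle, for 6, 12 or 24 h. Whether the KO line is 1 clone or a pool is not stated in the labels, nor do they say that the 3 replicates of a group came from separate cultures. The p-values below therefore measure only the spread between these samples, which may be technical. Values are log2 expression values as deposited, and a change is the mean of stimulated minus vehicle libraries on that scale. Whether they are scaled by gene length is not stated, so levels are compared between groups and not between genes.

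The gene targeted in the KO, ACOD1 (the current symbol of IRG1), read between 7.98 and 10.22 in stimulated KO libraries, against 9.20 and 12.76 as the lowest and highest of the stimulated WT libraries. In vehicle-treated libraries it read between 0 and 0.33 in KO cells and between 0.12 and 0.86 in WT cells. The KO minus WT difference with stimulation was -3.31 at 6 h, -2.69 at 12 h and -1.48 at 24 h, the last of which did not pass the test (adjusted p = 0.0597). All 10 macrophage markers had a row, with library values between 4.11 and 14.31, whereas the group medians of the lymphocyte, epithelial, fibroblast, endothelial, muscle and neuron lists lay between 0.62 and 4.58. Single markers of those lists reached higher, up to 9.19 for PECAM1. Of the defining markers of those lists, CD3E, MS4A1, EPCAM and SYT1 had no row. Among the libraries, the second KO replicate stimulated for 6 h correlated with its mates at 0.827 and 0.851, against 0.954 between those mates. The third WT replicate stimulated for 24 h correlated with its mates at 0.885 and 0.856. Results that change without either are given below. In such bulk samples, fewer cells of a type and less RNA per cell cannot be told apart.

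LPS with interferon-γ moved many TRIM genes, and more of them up than down. In KO cells 16 members rose and 9 fell at 6 h, 18 rose and 7 fell at 12 h, and 16 rose and 4 fell at 24 h (limma, Benjamini-Hochberg adjusted p below 0.05 over all 21232 genes tested). Among all genes tested in KO cells, 38.7%, 35% and 38.9% were called at 6, 12 and 24 h in either direction, with 16.2%, 15.5% and 17.3% called up and 22.5%, 19.5% and 21.6% called down. The members' own shares in KO cells were 48.1%, 48.1% and 38.5%, with 30.8%, 34.6% and 30.8% up. In WT cells 16 members rose and 9 fell at 6 h, 18 rose and 7 fell at 12 h, and 17 rose and 8 fell at 24 h. The background in WT cells was 36%, 38.5% and 46.4% in either direction, of which 15.1%, 16.8% and 20.2% were up and 20.9%, 21.7% and 26.1% down. The share of members called was near the background or moderately above it. Stimulated and vehicle libraries did not overlap, in either direction, for 40.6% to 55.7% of all genes tested, depending on the comparison. Groups that stand apart, as described below for single genes, were therefore common. The median change of the 52 members was 0.12, 0.19 and 0.40 in KO cells, against -0.20, -0.12 and -0.08 for all genes tested. In WT cells the members' medians were 0.06, 0.16 and 0.30, against -0.17, -0.18 and -0.11 for all genes tested.

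In all, 13 members rose in all 6 comparisons with vehicle, a pattern held by 7.39% of all genes tested: TRIM69, TRIM22, TRIM31, TRIM5, TRIM25, TRIM38, TRIM56, TRIM21, TRIM46, TRIM36, TRIM34, TRIM26 and TRIM33. TRIM28, TRIM45 and TRIM59, 3 members, fell in all 6, which 7.24% of all genes did. No member was called up in 1 comparison and down in another in this fit. In a paired fit, with the replicate number as a block, TRIM8 in WT cells passed in both directions, at 12 h (-0.54) and at 24 h (0.48). Another 15 members (28.8%, against 28.7% of all genes tested) passed in none of the 6: TRIM2, TRIM3, TRIM4, TRIM6, TRIM9, TRIM23, TRIM24, TRIM35, TRIM47, TRIM63, TRIM66, TRIM68, TRIM72, TRIM73 and TRIM74. The heat map of changes orders the members by their mean change.

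**Figure D1:**
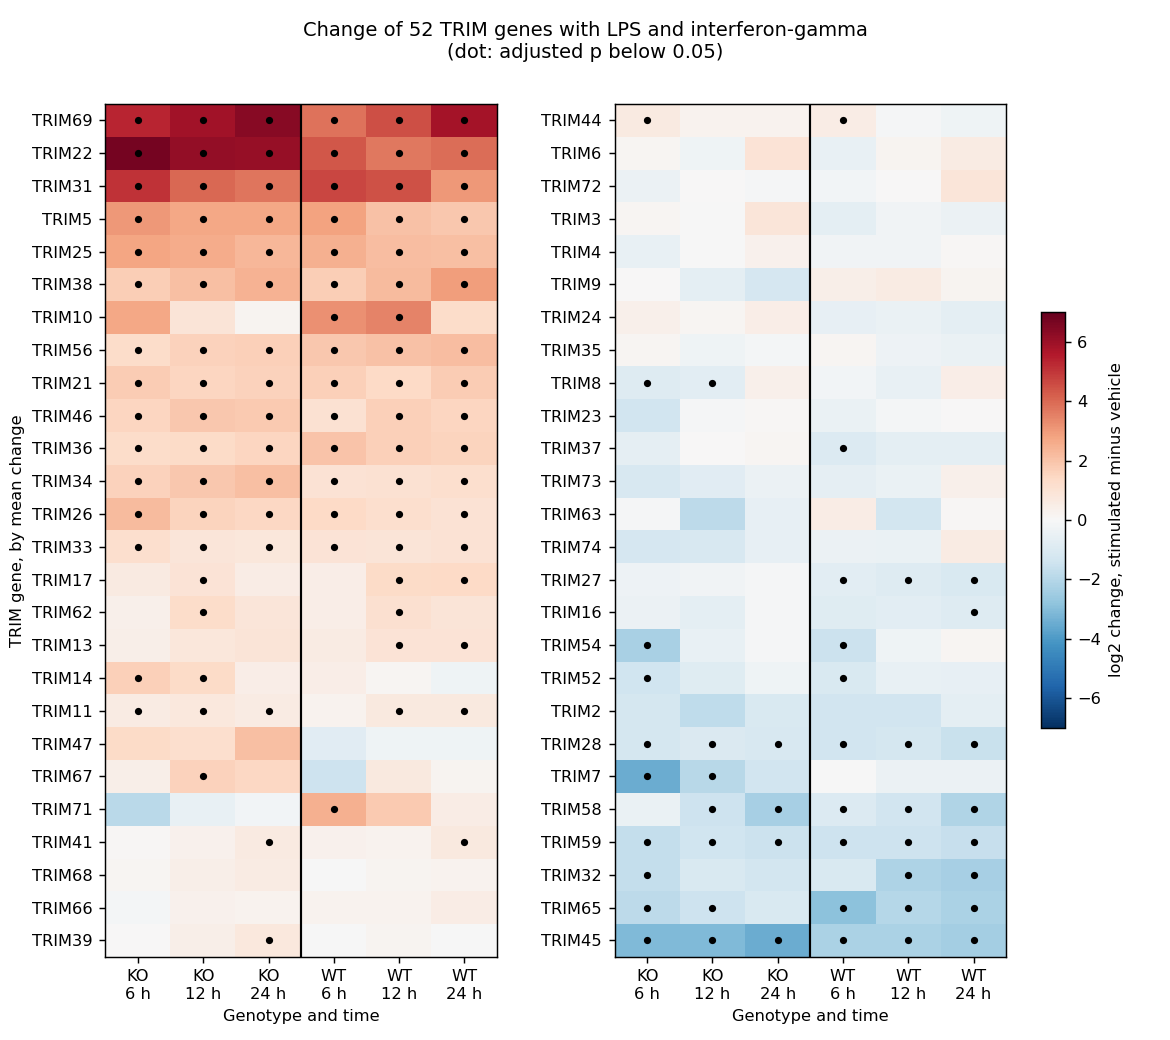
Heat map of the log2 change with LPS and interferon-γ (stimulated minus vehicle, means of 3 libraries each) of the 52 TRIM genes tested, in rows ordered by mean change, with KO and WT columns at 6, 12 and 24 h and a dot where the adjusted p was below 0.05. The 13 genes that rose in all 6 columns lie towards one end, led by TRIM69 and TRIM22, and TRIM45, TRIM59 and TRIM28, which fell in all 6, lie towards the other.

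The members known for virus restriction or interferon induction were a group of 11, and they held 9 or 10 of the 16 to 18 rises of each comparison. The group was drawn up partly for interferon induction, with earlier results of these data known, and the stimulus holds interferon-γ. Its share of the rises is therefore a description and not a test of the group. Among all genes tested, 15.1% to 20.2% were called up in these comparisons. In KO cells 10 of the 11 rose at 6 h, 10 at 12 h and 9 at 24 h. In WT cells 9 rose at each time, and none of the 11 fell in any comparison with vehicle. Their median change was 1.75, 1.88 and 2.08 in KO cells and 1.74, 2.07 and 1.90 in WT cells at 6, 12 and 24 h. TRIM69, TRIM22, TRIM5, TRIM25, TRIM38, TRIM56, TRIM21, TRIM34 and TRIM26 accounted for the 9 that rose throughout, TRIM14 rose at 6 and 12 h in KO cells, and TRIM6 passed in no comparison.

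Promoter windows of these genes are shown because many interferon-induced genes carry a short interferon-stimulated response element near their start. The windows, RefSeq sequence of build GRCh38.p14, ran over 250 bases before and 50 after each annotated start, and 42 of the 53 members had one. The core searched was GAAANNGAAA on both strands. It lay in a window of 9 of the 42 members (21.4%): TRIM2, TRIM5, TRIM14, TRIM16, TRIM21, TRIM26, TRIM34, TRIM44 and TRIM69. Among all promoters of that annotation 4.38% of 27305 genes and 3.57% of 35116 windows held it. Among the virus-restriction group it lay in 6 of the 10 members with a window (60.0%), and TRIM22 had no window. Outside that group it lay in 3 of 32 tested members (9.38%). Among the members that rose in all 6 comparisons it lay in 5 of 12 (41.7%), all 5 of them in the virus-restriction group. Among the other tested members it lay in 4 of 30 (13.3%). The virus-restriction group was drawn up partly for interferon induction, with earlier results of these data known, so these shares are a description. Whether the core plays a part in the rises was not tested. The interferon-γ activated core TTCNNNGAA lay in 5 of the 42 (11.9%), TRIM2, TRIM3, TRIM7, TRIM16 and TRIM46, in none of the virus-restriction group, and in 9.38% of all genes. Stretches of 100 bases follow, 5′ to 3′ on the gene's strand, with the response element core in capitals. In TRIM14, TRIM26, TRIM34, TRIM5 and TRIM69 the capitals read as its reverse complement, and in TRIM26 they cover 2 overlapping matches. TRIM21 has 2 overlapping matches in its window, of which the stretch holds 1. TRIM25 and TRIM38 stand at the end as members of the group whose window has no match.
TRIM69, chr15:44736421-44736520, plus strand: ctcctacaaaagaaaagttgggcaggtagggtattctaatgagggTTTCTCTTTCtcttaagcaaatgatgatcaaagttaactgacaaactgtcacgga
TRIM5, chr11:5685047-5685146, minus strand: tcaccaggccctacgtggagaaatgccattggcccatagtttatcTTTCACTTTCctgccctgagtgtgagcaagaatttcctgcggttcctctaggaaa
TRIM21, chr11:4393673-4393772, minus strand: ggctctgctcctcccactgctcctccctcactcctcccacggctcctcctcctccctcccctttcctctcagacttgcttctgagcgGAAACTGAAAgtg
TRIM34, chr11:5624866-5624965, plus strand: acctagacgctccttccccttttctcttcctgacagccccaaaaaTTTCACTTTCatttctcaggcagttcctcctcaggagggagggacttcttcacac
TRIM26, chr6:30213546-30213645, minus strand: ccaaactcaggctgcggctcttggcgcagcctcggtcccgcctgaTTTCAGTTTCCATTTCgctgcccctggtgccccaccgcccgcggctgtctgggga
TRIM14, chr9:98119194-98119293, minus strand: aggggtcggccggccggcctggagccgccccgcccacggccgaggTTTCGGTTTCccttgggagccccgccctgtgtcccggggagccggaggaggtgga
TRIM25, chr17:56914020-56914119, minus strand: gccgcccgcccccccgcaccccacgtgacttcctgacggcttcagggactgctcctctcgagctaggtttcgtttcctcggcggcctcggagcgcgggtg
TRIM38, chr6:25962732-25962831, plus strand: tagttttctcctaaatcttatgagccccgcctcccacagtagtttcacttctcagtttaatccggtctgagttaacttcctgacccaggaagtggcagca

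TRIM69, which restricts vesicular stomatitis virus, had the largest mean change of all members, and its window holds the core shown above at base -62 from the start. TRIM69 in stimulated KO cells read 5.63, 6.75 and 6.43 (6 h), 6.36, 7.30 and 6.69 (12 h) and 7.08, 7.83 and 7.24 (24 h). TRIM69 in vehicle-treated KO cells read 0.57, 1.18 and 1.01 (6 h), 0.77, 1.29 and 0.62 (12 h) and 0.62, 1.17 and 1.27 (24 h). Every stimulated KO library was above every vehicle KO library by more than 4 log2 units. TRIM69 in stimulated WT cells read 5.70, 5.33 and 5.92 (6 h), 6.03, 6.57 and 6.35 (12 h) and 6.82, 7.52 and 7.36 (24 h). TRIM69 in vehicle-treated WT cells read 1.67, 1.93 and 1.99 (6 h), 1.88, 1.75 and 1.77 (12 h) and 1.07, 1.61 and 1.58 (24 h). The 2 treatments did not overlap in WT cells either, and the vehicle values of KO cells were lower than those of WT cells in all but the 24 h groups, which overlapped. The changes of TRIM69 were 5.35, 5.89 and 6.36 in KO cells and 3.79, 4.52 and 5.82 in WT cells, each with a standard error of 0.32, and the largest of the 6 adjusted p-values was 2.4e-10. In WT cells the response was larger at 24 h than at 6 h, by 2.03 ± 0.46 (adjusted p = 0.00513). The same difference in KO cells was 1.02 and did not pass (adjusted p = 0.189). The 18 libraries of TRIM69 at or above the floor of the filter were all stimulated ones. TRIM69 was therefore tested only through the groups where it is high, and its p-values are a description.

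TRIM22, an interferon-induced protein that restrains HIV transcription, rose by over 6 log2 units in KO cells. TRIM22 in stimulated KO cells read 10.25, 9.56 and 10.26 (6 h), 10.41, 10.46 and 10.36 (12 h) and 10.14, 10.31 and 10.16 (24 h). TRIM22 in vehicle-treated KO cells read 3.36, 3.92 and 2.63 (6 h), 3.49, 6.02 and 3.32 (12 h) and 3.38, 5.61 and 3.25 (24 h). The treatments were far apart, and the second vehicle replicate of KO cells was the highest of its 3 at each time. TRIM22 in stimulated WT cells read 10.42, 10.42 and 10.15 (6 h), 10.60, 10.24 and 10.20 (12 h) and 10.69, 10.14 and 10.38 (24 h). TRIM22 in vehicle-treated WT cells read 5.15, 6.43 and 6.33 (6 h), 5.38, 7.91 and 6.72 (12 h) and 6.00, 7.01 and 6.52 (24 h). Stimulated values of both genotypes lay close together, all between 9.56 and 10.69, whereas the vehicle values ranged more widely and were mostly lower in KO cells. The changes of TRIM22 were 6.72, 6.13 and 6.12 in KO cells and 4.36, 3.67 and 3.89 in WT cells, each with a standard error of 0.59, and the largest of the 6 adjusted p-values was 1.48e-05.

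TRIM5, whose product binds the capsids of incoming retroviruses, and its relative TRIM34 are neighbours of TRIM22 and TRIM6 on chromosome 11. TRIM5 in stimulated KO cells read 7.07, 6.88 and 7.26 (6 h), 6.72, 6.96 and 7.06 (12 h) and 6.34, 6.35 and 6.72 (24 h). TRIM5 in vehicle-treated KO cells read 3.88, 4.48 and 3.78 (6 h), 3.89, 4.84 and 3.95 (12 h) and 3.54, 4.32 and 3.43 (24 h). No stimulated library overlapped a vehicle one. TRIM5 in stimulated WT cells read 7.43, 7.72 and 7.65 (6 h), 7.06, 6.61 and 7.29 (12 h) and 6.94, 6.49 and 6.41 (24 h). TRIM5 in vehicle-treated WT cells read 4.46, 4.72 and 5.11 (6 h), 4.37, 5.56 and 4.80 (12 h) and 4.50, 4.87 and 4.77 (24 h). The WT groups were likewise apart at every time. The changes of TRIM5 were 3.03, 2.69 and 2.70 in KO cells and 2.84, 2.08 and 1.90 in WT cells, each with a standard error of 0.30, and the largest of the 6 adjusted p-values was 8.58e-06.

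TRIM34 also rose in all 6 comparisons. TRIM34 in stimulated KO cells read 6.99, 6.82 and 6.97 (6 h), 7.46, 7.66 and 7.58 (12 h) and 7.43, 7.46 and 7.45 (24 h). TRIM34 in vehicle-treated KO cells read 5.31, 5.39 and 5.26 (6 h), 5.39, 6.50 and 5.17 (12 h) and 5.29, 5.74 and 5.04 (24 h). Stimulated KO libraries all stood above the vehicle ones, with the second vehicle replicate at 12 h the nearest. TRIM34 in stimulated WT cells read 6.98, 7.54 and 7.04 (6 h), 7.55, 7.43 and 7.32 (12 h) and 7.35, 7.62 and 6.71 (24 h). TRIM34 in vehicle-treated WT cells read 5.97, 6.07 and 6.42 (6 h), 5.93, 6.92 and 6.27 (12 h) and 5.72, 6.27 and 6.12 (24 h). In WT cells too the groups were apart and the changes were smaller. The changes of TRIM34 were 1.61, 1.88 and 2.08 in KO cells and 1.03, 1.06 and 1.19 in WT cells, each with a standard error of 0.28, and the largest of the 6 adjusted p-values was 0.00479. TRIM5, TRIM6 and TRIM34 overlap a read-through gene, TRIM6-TRIM34, whose own row changed by 1.70, 1.58 and 1.91 in KO cells and 0.89, 0.98 and 1.17 in WT cells, all called, so the split of reads between these rows is uncertain.

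TRIM25 ubiquitinates RIG-I, the cytosolic sensor of viral RNA. TRIM25 in stimulated KO cells read 10.18, 9.13 and 10.32 (6 h), 10.21, 9.97 and 9.96 (12 h) and 9.83, 9.88 and 9.56 (24 h). TRIM25 in vehicle-treated KO cells read 7.36, 7.34 and 6.61 (6 h), 7.46, 7.77 and 7.06 (12 h) and 7.62, 7.56 and 7.15 (24 h). The second KO replicate stimulated for 6 h, 1 of the libraries that stand apart, was the lowest of the stimulated KO libraries and still above the vehicle ones. TRIM25 in stimulated WT cells read 10.51, 9.98 and 9.51 (6 h), 10.64, 9.86 and 9.87 (12 h) and 10.42, 9.74 and 9.04 (24 h). TRIM25 in vehicle-treated WT cells read 7.40, 7.87 and 7.30 (6 h), 7.99, 8.42 and 7.49 (12 h) and 8.02, 8.19 and 6.68 (24 h). The third replicate at 24 h was the lowest of its group with stimulation and with vehicle. The changes of TRIM25 were 2.78, 2.61 and 2.31 in KO cells and 2.48, 2.16 and 2.10 in WT cells, each with a standard error of 0.37, and the largest of the 6 adjusted p-values was 4.38e-05.

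TRIM38, which restrains Toll-like receptor and interferon signalling by acting on TRAF6, TAB2 and TRIF, rose in all 6 comparisons. TRIM38 in stimulated KO cells read 7.87, 7.83 and 7.76 (6 h), 8.31, 8.83 and 8.52 (12 h) and 8.71, 9.02 and 8.63 (24 h). TRIM38 in vehicle-treated KO cells read 6.09, 6.23 and 5.93 (6 h), 6.17, 6.89 and 6.23 (12 h) and 6.31, 6.51 and 6.24 (24 h). The stimulated KO values were higher at 12 and 24 h than at 6 h, in every library. TRIM38 in stimulated WT cells read 8.76, 8.65 and 8.34 (6 h), 9.50, 9.06 and 9.24 (12 h) and 9.86, 9.54 and 9.41 (24 h). TRIM38 in vehicle-treated WT cells read 7.07, 6.62 and 6.85 (6 h), 7.06, 7.08 and 6.96 (12 h) and 6.71, 6.89 and 6.47 (24 h). Stimulated WT libraries at 12 and 24 h were likewise above those at 6 h, with no overlap with vehicle. The changes of TRIM38 were 1.73, 2.13 and 2.44 in KO cells and 1.74, 2.23 and 2.91 in WT cells, each with a standard error of 0.20, and the largest of the 6 adjusted p-values was 4.9e-08. The WT response was larger at 24 h than at 6 h by 1.18 ± 0.28 (adjusted p = 0.00723), and the corresponding KO value of 0.70 did not pass (adjusted p = 0.128).

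TRIM56, an RNA-binding antiviral ligase linked to cGAS and STING, rose in both genotypes. TRIM56 in stimulated KO cells read 8.72, 8.13 and 8.89 (6 h), 9.32, 9.36 and 9.10 (12 h) and 9.32, 9.27 and 8.77 (24 h). TRIM56 in vehicle-treated KO cells read 7.72, 6.89 and 7.34 (6 h), 7.84, 7.46 and 7.59 (12 h) and 8.06, 7.16 and 7.20 (24 h). The gap between the treatments was narrowest at 6 h. TRIM56 in stimulated WT cells read 9.62, 9.56 and 8.72 (6 h), 10.28, 9.29 and 8.79 (12 h) and 10.13, 9.27 and 9.17 (24 h). TRIM56 in vehicle-treated WT cells read 7.26, 7.60 and 7.38 (6 h), 7.17, 7.49 and 7.49 (12 h) and 7.45, 7.59 and 7.00 (24 h). The first stimulated WT replicate was the highest of its group at each time, and no stimulated value reached down to vehicle. The changes of TRIM56 were 1.26, 1.63 and 1.65 in KO cells and 1.89, 2.07 and 2.18 in WT cells, each with a standard error of 0.32, and the largest of the 6 adjusted p-values was 0.00265.

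TRIM21, the cytosolic receptor for antibodies, rose by 1.38 to 1.77 in the 6 comparisons. TRIM21 in stimulated KO cells read 8.83, 9.66 and 9.08 (6 h), 8.99, 9.01 and 9.14 (12 h) and 8.84, 8.89 and 9.07 (24 h). TRIM21 in vehicle-treated KO cells read 7.21, 7.84 and 7.26 (6 h), 7.52, 7.61 and 7.46 (12 h) and 7.30, 7.32 and 7.37 (24 h). The treatments did not overlap. TRIM21 in stimulated WT cells read 8.83, 8.96 and 9.01 (6 h), 8.77, 8.92 and 9.01 (12 h) and 8.95, 9.00 and 8.93 (24 h). TRIM21 in vehicle-treated WT cells read 6.90, 7.15 and 7.70 (6 h), 7.11, 7.74 and 7.71 (12 h) and 6.86, 7.25 and 7.47 (24 h). KO and WT libraries overlapped in both treatments at every time. The changes of TRIM21 were 1.75, 1.52 and 1.60 in KO cells and 1.68, 1.38 and 1.77 in WT cells, each with a standard error of 0.22, and the largest of the 6 adjusted p-values was 1e-05.

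TRIM26, reported to degrade nuclear IRF3, rose throughout. TRIM26 in stimulated KO cells read 5.98, 6.12 and 5.90 (6 h), 6.03, 5.75 and 5.90 (12 h) and 5.94, 5.31 and 5.77 (24 h). TRIM26 in vehicle-treated KO cells read 3.94, 3.83 and 3.66 (6 h), 4.28, 4.53 and 4.21 (12 h) and 4.15, 4.37 and 4.11 (24 h). Vehicle and stimulated KO libraries were apart at every time. TRIM26 in stimulated WT cells read 6.49, 6.47 and 6.24 (6 h), 6.39, 6.08 and 6.51 (12 h) and 6.43, 6.08 and 5.53 (24 h). TRIM26 in vehicle-treated WT cells read 4.87, 5.11 and 5.06 (6 h), 5.24, 5.21 and 5.03 (12 h) and 5.02, 5.21 and 4.74 (24 h). With vehicle, KO values lay below WT values at every time, with no overlap. The changes of TRIM26 were 2.19, 1.55 and 1.46 in KO cells and 1.39, 1.16 and 1.02 in WT cells, each with a standard error of 0.22, and the largest of the 6 adjusted p-values was 0.000371.

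TRIM14 lacks a RING and serves as an adaptor of MAVS. TRIM14 in stimulated KO cells read 7.74, 6.49 and 7.60 (6 h), 7.69, 7.35 and 7.59 (12 h) and 7.24, 6.45 and 7.02 (24 h). TRIM14 in vehicle-treated KO cells read 5.86, 5.61 and 5.32 (6 h), 6.15, 6.68 and 5.86 (12 h) and 6.59, 6.64 and 6.13 (24 h). In KO cells the treatments were apart at 6 and 12 h and overlapped at 24 h. TRIM14 in stimulated WT cells read 7.68, 7.64 and 6.84 (6 h), 7.90, 6.98 and 7.26 (12 h) and 7.40, 6.75 and 6.24 (24 h). TRIM14 in vehicle-treated WT cells read 7.00, 6.94 and 6.82 (6 h), 7.42, 7.18 and 7.09 (12 h) and 7.42, 7.29 and 6.52 (24 h). The WT groups overlapped at each time. The changes of TRIM14 with stimulation (standard error 0.33) were 1.68, 1.31 and 0.45 in KO cells, with adjusted p-values of 0.000191, 0.00261 and 0.298. In WT cells those of TRIM14 were 0.47, 0.15 and -0.28, with adjusted p-values of 0.29, 0.759 and 0.519.

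TRIM6, which makes unanchored ubiquitin chains that activate IKKε, was low throughout. TRIM6 in stimulated KO cells read 2.16, 1.11 and 2.39 (6 h), 3.28, 2.84 and 3.11 (12 h) and 4.51, 4.12 and 4.35 (24 h). TRIM6 in vehicle-treated KO cells read 2.49, 1.68 and 1.15 (6 h), 3.41, 3.73 and 3.01 (12 h) and 3.28, 3.80 and 3.10 (24 h). Only at 24 h did all stimulated KO libraries lie above the vehicle ones. TRIM6 in stimulated WT cells read 2.78, 2.42 and 1.47 (6 h), 3.44, 3.39 and 3.70 (12 h) and 4.84, 4.23 and 3.23 (24 h). TRIM6 in vehicle-treated WT cells read 2.84, 2.99 and 2.40 (6 h), 3.43, 3.01 and 3.48 (12 h) and 3.77, 3.77 and 3.12 (24 h). All WT pairs of groups overlapped. The changes were 0.11, -0.31 and 0.93 in KO cells and -0.51, 0.20 and 0.55 in WT cells (standard error 0.42), with a smallest adjusted p of 0.0784, so no change passed. The levels of all 11 genes by library are plotted together.

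**Figure D2:**
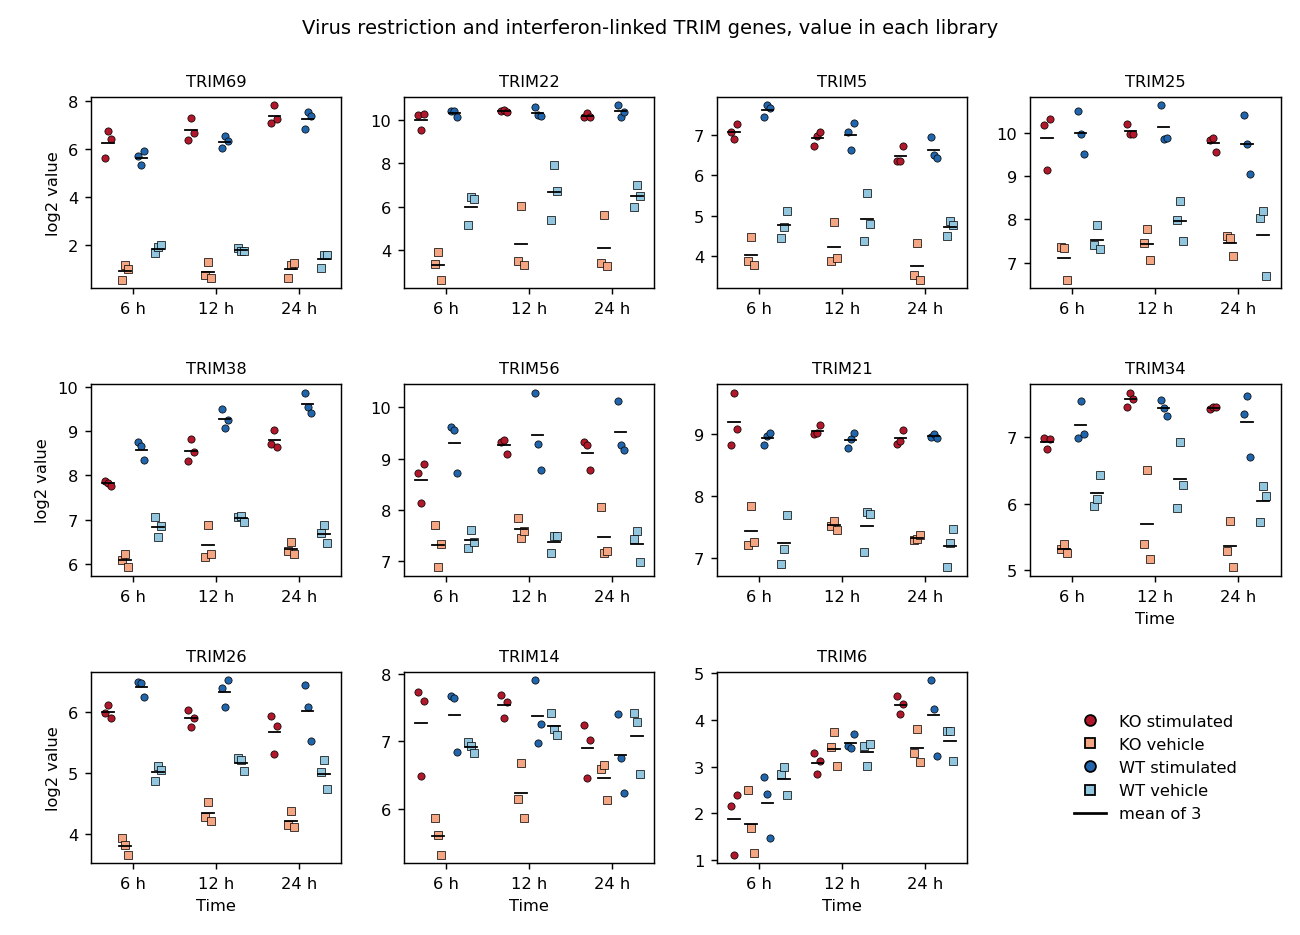
Log2 value of the 11 TRIM genes known for virus restriction or interferon induction in each of the 36 libraries (points) and the mean of 3 (lines), by time, with stimulated KO, vehicle KO, stimulated WT and vehicle WT drawn side by side. In TRIM69 the stimulated KO libraries read 5.63 or more and the vehicle KO libraries 1.29 or less, while in TRIM6 the stimulated and vehicle groups overlap except in KO cells at 24 h.

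Each of the 56 calls of the virus-restriction group with stimulation was kept in every fit that left out 1 library. With only the 6 libraries of a comparison fitted, the call of TRIM26 in WT cells at 24 h was lost (1.02, adjusted p = 0.0632). TRIM69 was most similar over the 36 libraries to TRIM21 (Pearson r = 0.945), TRIM38 (0.933), TRIM22 (0.93), TRIM31 (0.926) and TRIM25 (0.908), and over the 12 group means these were 0.967, 0.946, 0.956, 0.94 and 0.97. All of these values come from the same libraries and follow the treatment, so they describe shared patterns only.

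The regulators of innate sensing and NF-κB, a group of 12, changed in both directions. In KO cells 2 rose and 4 fell at 6 h, 1 rose and 3 fell at 12 h, and 2 rose and 1 fell at 24 h. In WT cells 2 rose and 3 fell at 6 h, and 2 rose and 4 fell at 12 h and again at 24 h. Their median change lay between -0.46 and 0.26 in the 6 comparisons. TRIM31 rose in all 6, TRIM45 fell in all 6, and TRIM65 fell in 5.

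TRIM31, a ligase acting on MAVS and NLRP3, was low with vehicle and rose in every comparison. TRIM31 in stimulated KO cells read 4.08, 6.37 and 5.00 (6 h), 4.07, 4.85 and 4.00 (12 h) and 3.98, 3.86 and 4.07 (24 h). TRIM31 in vehicle-treated KO cells read 0.02, 0.17 and 0.01 (6 h), 0.05, 0.82 and 0.02 (12 h) and 0.07, 0.64 and 0.04 (24 h). Values at 6 h spread widely in stimulated KO cells, with the second replicate highest, and none came near vehicle. TRIM31 in stimulated WT cells read 5.22, 4.65 and 5.73 (6 h), 5.90, 4.90 and 5.61 (12 h) and 4.79, 3.93 and 4.25 (24 h). TRIM31 in vehicle-treated WT cells read 0.27, 0.27 and 1.08 (6 h), 0.60, 1.28 and 1.21 (12 h) and 1.08, 1.61 and 1.13 (24 h). Vehicle values were 1.61 or less in WT cells and stimulated ones 3.93 or more. The changes of TRIM31 were 5.08, 4.01 and 3.72 in KO cells and 4.66, 4.44 and 3.05 in WT cells, each with a standard error of 0.45, and the largest of the 6 adjusted p-values was 2.86e-06. The 18 libraries of TRIM31 at or above the floor of the filter were all stimulated ones. TRIM31 was therefore tested only through the groups where it is high, and its p-values are a description. An antisense gene, TRIM31-AS1, overlaps it, and whether the counting used strand is not stated, so reads of the pair cannot be told apart.

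TRIM45, reported to dampen MAPK and NF-κB signalling, had the largest fall among the members that were called in all 6 comparisons. TRIM45 in stimulated KO cells read 2.74, 2.25 and 2.30 (6 h), 2.71, 1.59 and 2.56 (12 h) and 1.60, 1.86 and 2.18 (24 h). TRIM45 in vehicle-treated KO cells read 5.34, 5.55 and 5.66 (6 h), 6.02, 5.03 and 5.06 (12 h) and 5.09, 5.65 and 5.36 (24 h). All stimulated KO values lay below all vehicle values. TRIM45 in stimulated WT cells read 2.98, 1.44 and 3.79 (6 h), 2.84, 1.16 and 3.69 (12 h) and 2.40, 1.88 and 4.87 (24 h). TRIM45 in vehicle-treated WT cells read 4.74, 5.00 and 5.16 (6 h), 4.39, 4.73 and 5.22 (12 h) and 5.04, 5.45 and 5.87 (24 h). The WT groups were also apart at each time, though the third stimulated replicate at 24 h, 1 of the libraries that stand apart, read 4.87. The changes of TRIM45 were -3.09, -3.08 and -3.49 in KO cells and -2.23, -2.22 and -2.41 in WT cells, each with a standard error of 0.60, and the largest of the 6 adjusted p-values was 0.00447. Without the second WT stimulated replicate the change was -1.58 at 6 h and -1.52 at 12 h and no longer passed (adjusted p = 0.0535 and 0.0555).

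TRIM65, the ligase of the RNA sensor MDA5, fell at each time in WT cells and at 6 and 12 h in KO cells. TRIM65 in stimulated KO cells read 4.33, 5.08 and 3.23 (6 h), 4.91, 4.32 and 3.83 (12 h) and 5.01, 4.49 and 4.53 (24 h). TRIM65 in vehicle-treated KO cells read 5.87, 6.30 and 6.01 (6 h), 5.60, 5.88 and 5.89 (12 h) and 5.81, 6.08 and 5.39 (24 h). Every stimulated KO library was below the vehicle libraries of its time. TRIM65 in stimulated WT cells read 3.47, 4.41 and 1.93 (6 h), 4.29, 4.56 and 2.97 (12 h) and 4.73, 4.47 and 2.60 (24 h). TRIM65 in vehicle-treated WT cells read 5.90, 6.58 and 5.91 (6 h), 5.88, 6.21 and 5.64 (12 h) and 6.52, 6.02 and 5.86 (24 h). The third stimulated WT replicate was the lowest at each time. The changes of TRIM65 with stimulation (standard error 0.53) were -1.85, -1.43 and -1.09 in KO cells, with adjusted p-values of 0.00637, 0.0347 and 0.105. In WT cells those of TRIM65 were -2.86, -1.97 and -2.20, with adjusted p-values of 9.16e-05, 0.00398 and 0.00118. Without the third KO stimulated replicate the 6 h change in KO cells was -1.36 and did not pass (adjusted p = 0.0626). The 12 h change in KO cells was lost in 5 of the 6 fits that left out 1 of its libraries, with values between -1.53 and -1.17, and was kept without the first stimulated replicate.

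The other members of this group were called in 3 comparisons or fewer, and TRIM13, TRIM32 and TRIM39 were named after their values were seen. TRIM27, a ligase of endosomal trafficking, fell in WT cells by 0.74, 0.89 and 1.08 (adjusted p = 0.0129, 0.00316 and 0.000378). TRIM32, a STING ligase, fell by 1.65 at 6 h in KO cells, and by 2.17 at 12 h and 2.32 at 24 h in WT cells. TRIM8, which acts on TAK1 and SOCS1, fell by 0.90 at 6 h and 0.76 at 12 h in KO cells. In WT cells the changes of TRIM8 at 12 and 24 h were -0.54 and 0.48, and both passed in the paired fit alone (adjusted p = 0.0103 and 0.0181). TRIM44 rose at 6 h in both genotypes, by 0.64 in KO cells and 0.52 in WT cells. TRIM13 rose in WT cells at 12 h (0.98) and 24 h (0.94), where the KO values were 0.78 and 0.90 and did not pass (adjusted p = 0.104 and 0.0526). In the paired fit, with the replicate number as a block, TRIM13 passed at 12 h in KO cells (adjusted p = 0.00977) and at 6 h in WT cells (0.59, adjusted p = 0.0481). TRIM39, whose reads may be shared with an overlapping read-through gene, TRIM39-RPP21, rose at 24 h in KO cells by 0.71. Most of these calls were lost when 1 library was left out, that of TRIM39 in 5 of 6 fits (0.63 to 0.78) and that of TRIM32 in 5 of 6 fits in KO cells (-1.79 to -1.46). In WT cells TRIM32 was lost at 12 h without the first vehicle (-1.84) or the third stimulated replicate (-1.36) and at 24 h without the third stimulated replicate (-1.60). TRIM13 was lost at 12 h in 4 of 6 fits (0.77 to 0.91) and at 24 h in 3 (0.68 to 0.86). TRIM4, TRIM23 and TRIM68 passed in none of the 6 comparisons. The 6 h call of TRIM44 was lost in 4 of the fits that left out 1 WT library (0.47 to 0.49) and in 3 that left out 1 KO library (0.49 to 0.52), and the 6 h call of TRIM27 in 2 (-0.67 and -0.59, without the second vehicle or the third stimulated WT replicate).

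The 4 chromatin co-regulators held 1 member that rose, TRIM33, and 1 that fell, TRIM28, in each of the 6 comparisons. TRIM28, the corepressor recruited by KRAB zinc-finger proteins, fell everywhere. TRIM28 in stimulated KO cells read 8.08, 8.68 and 8.18 (6 h), 8.63, 8.60 and 8.43 (12 h) and 8.43, 8.52 and 8.47 (24 h). TRIM28 in vehicle-treated KO cells read 9.39, 9.72 and 9.55 (6 h), 9.55, 9.70 and 9.46 (12 h) and 9.55, 9.76 and 9.43 (24 h). The treatments did not overlap in KO cells at any time. TRIM28 in stimulated WT cells read 8.18, 8.70 and 8.04 (6 h), 8.16, 8.41 and 7.94 (12 h) and 8.09, 8.08 and 7.79 (24 h). TRIM28 in vehicle-treated WT cells read 9.49, 10.19 and 9.23 (6 h), 9.32, 9.68 and 9.23 (12 h) and 9.51, 9.84 and 9.33 (24 h). The same was true of WT cells. The changes of TRIM28 were -1.24, -1.02 and -1.11 in KO cells and -1.33, -1.24 and -1.58 in WT cells, each with a standard error of 0.21, and the largest of the 6 adjusted p-values was 0.00044.

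TRIM33, a SMAD partner and chromatin reader, rose by about 1 log2 unit. TRIM33 in stimulated KO cells read 8.69, 7.48 and 8.54 (6 h), 8.20, 7.95 and 8.09 (12 h) and 8.19, 8.05 and 8.00 (24 h). TRIM33 in vehicle-treated KO cells read 7.37, 6.74 and 7.09 (6 h), 7.27, 7.23 and 7.15 (12 h) and 7.51, 7.21 and 7.08 (24 h). The second KO replicate stimulated for 6 h was the lowest of its 3 and just above the highest vehicle library. TRIM33 in stimulated WT cells read 8.11, 8.24 and 7.88 (6 h), 8.12, 7.60 and 7.92 (12 h) and 8.19, 7.99 and 7.73 (24 h). TRIM33 in vehicle-treated WT cells read 7.07, 7.24 and 6.96 (6 h), 6.95, 7.17 and 6.83 (12 h) and 7.00, 7.18 and 6.71 (24 h). WT groups stood apart at each time. The changes of TRIM33 were 1.16, 0.87 and 0.81 in KO cells and 0.98, 0.90 and 1.00 in WT cells, each with a standard error of 0.23, and the largest of the 6 adjusted p-values was 0.00581. The other 2 members, TRIM24 and TRIM66, passed in no comparison, with changes between -0.70 and 0.50.

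Among the 7 NHL-repeat, microtubule and neuronal members, 2, 3 and 2 rose in KO cells at 6, 12 and 24 h and 3, 2 and 2 in WT cells, and none fell. TRIM46, which organises microtubules at the start of the axon, rose in all 6 comparisons. TRIM46 in stimulated KO cells read 6.25, 6.84 and 5.76 (6 h), 6.56, 6.46 and 6.16 (12 h) and 6.05, 6.49 and 5.96 (24 h). TRIM46 in vehicle-treated KO cells read 4.74, 4.98 and 4.56 (6 h), 4.71, 4.68 and 4.14 (12 h) and 4.52, 4.36 and 4.09 (24 h). The lowest stimulated KO library at each time lay above every vehicle one. TRIM46 in stimulated WT cells read 5.50, 5.42 and 4.80 (6 h), 6.07, 5.73 and 5.56 (12 h) and 5.74, 5.66 and 5.37 (24 h). TRIM46 in vehicle-treated WT cells read 4.25, 4.38 and 3.87 (6 h), 4.13, 4.38 and 3.88 (12 h) and 3.98, 4.15 and 4.07 (24 h). Stimulated KO libraries lay above all stimulated WT libraries at each time, and the treatments were apart in both genotypes. The changes of TRIM46 were 1.53, 1.88 and 1.85 in KO cells and 1.07, 1.66 and 1.53 in WT cells, each with a standard error of 0.26, and the largest of the 6 adjusted p-values was 0.00204.

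TRIM36, another microtubule-associated ligase, gave a less even rise. TRIM36 in stimulated KO cells read 7.13, 5.44 and 7.53 (6 h), 6.76, 7.74 and 7.70 (12 h) and 6.87, 7.74 and 7.41 (24 h). TRIM36 in vehicle-treated KO cells read 5.89, 5.12 and 5.19 (6 h), 6.07, 6.05 and 6.08 (12 h) and 5.99, 5.90 and 5.63 (24 h). At 6 h the second stimulated KO replicate, 1 of the libraries that stand apart, read 5.44 and lay within the vehicle range, and at 12 and 24 h the groups were apart. TRIM36 in stimulated WT cells read 7.82, 7.87 and 7.38 (6 h), 7.17, 7.78 and 7.60 (12 h) and 7.25, 7.94 and 6.81 (24 h). TRIM36 in vehicle-treated WT cells read 5.63, 5.59 and 5.83 (6 h), 5.78, 6.05 and 5.74 (12 h) and 5.71, 6.27 and 5.42 (24 h). In WT cells no library of one treatment reached the other. The changes of TRIM36 were 1.30, 1.33 and 1.50 in KO cells and 2.01, 1.66 and 1.53 in WT cells, each with a standard error of 0.37, and the largest of the 6 adjusted p-values was 0.0068. Without the third KO stimulated replicate the 6 h change in KO cells was 0.89 and did not pass (adjusted p = 0.0782).

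TRIM71, a stem-cell repressor of target RNAs, rose in WT cells at 6 h (2.47 ± 0.92, adjusted p = 0.036). That call was lost without the first or the third vehicle replicate (2.36 and 1.60) or the first stimulated one (1.78). TRIM71 reached the floor of the filter in 7 libraries, most of them stimulated WT ones, and would not have passed without those. Its p-values are therefore a description. TRIM67, a neuronal ligase, rose at 12 h in KO cells (1.64 ± 0.64, adjusted p = 0.0461), which was lost in 5 of 6 fits that left out 1 library (1.38 to 1.78). TRIM2, TRIM3 and TRIM9 passed in no comparison, and TRIM2 had changes of -1.22, -1.78 and -1.06 in KO cells and -1.34, -1.33 and -0.69 in WT cells with a standard error of 0.73. At 12 h TRIM2 passed in the paired fit (adjusted p = 0.0105 in KO cells and 0.0494 in WT cells).

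Of the 5 members tied to stress, autophagy, the cell cycle or vesicles, TRIM59 fell throughout and TRIM11 rose in 5 comparisons. TRIM59 is anchored in membranes and linked to proliferation. A read-through gene, TRIM59-IFT80, overlaps it, and how reads of the pair were assigned is not stated. TRIM59 in stimulated KO cells read 3.41, 2.60 and 3.53 (6 h), 4.11, 3.39 and 4.18 (12 h) and 4.50, 3.70 and 3.83 (24 h). TRIM59 in vehicle-treated KO cells read 5.58, 3.84 and 5.16 (6 h), 5.45, 5.09 and 5.40 (12 h) and 5.53, 5.91 and 5.03 (24 h). The second KO library at 6 h was low in both treatments, and its vehicle value of 3.84 was still above all stimulated ones of that time. TRIM59 in stimulated WT cells read 3.87, 4.03 and 3.65 (6 h), 4.05, 3.42 and 3.25 (12 h) and 4.19, 3.95 and 3.07 (24 h). TRIM59 in vehicle-treated WT cells read 5.26, 5.20 and 5.37 (6 h), 5.07, 4.98 and 4.98 (12 h) and 4.99, 6.15 and 4.84 (24 h). Stimulated values lay below vehicle values in all WT groups. The changes of TRIM59 were -1.68, -1.42 and -1.48 in KO cells and -1.43, -1.44 and -1.60 in WT cells, each with a standard error of 0.40, and the largest of the 6 adjusted p-values was 0.00612.

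TRIM11, which takes part in protein quality control, had the smallest change of the members singled out for their rise. TRIM11 in stimulated KO cells read 6.67, 6.86 and 6.10 (6 h), 6.69, 6.50 and 6.70 (12 h) and 6.94, 6.06 and 6.95 (24 h). TRIM11 in vehicle-treated KO cells read 5.91, 6.18 and 5.80 (6 h), 6.15, 5.63 and 5.96 (12 h) and 6.11, 6.04 and 6.01 (24 h). The KO groups overlapped at 6 and 24 h and were apart at 12 h. TRIM11 in stimulated WT cells read 5.88, 5.95 and 6.07 (6 h), 6.28, 6.31 and 6.64 (12 h) and 6.59, 6.35 and 6.56 (24 h). TRIM11 in vehicle-treated WT cells read 5.58, 5.72 and 5.86 (6 h), 5.55, 5.84 and 5.83 (12 h) and 5.91, 5.67 and 5.91 (24 h). WT groups were apart at each time, at 6 h only narrowly. The changes of TRIM11 with stimulation (standard error 0.22) were 0.58, 0.72 and 0.60 in KO cells, with adjusted p-values of 0.0375, 0.0115 and 0.0305. In WT cells those of TRIM11 were 0.25, 0.67 and 0.67, with adjusted p-values of 0.408, 0.0165 and 0.0132. Its calls were lost in fits that left out 1 library in each of the 5 comparisons: in KO cells in 4 fits at 6 h (0.42 to 0.55), 1 at 12 h (0.57) and 5 at 24 h (0.45 to 0.63), and in WT cells in 2 at 12 h (0.56 and 0.58) and 1 at 24 h (0.59). TRIM17, a neuronal ligase next to it on chromosome 1, rose at 12 h in KO cells (0.98) and at 12 and 24 h in WT cells (1.36 and 1.38). TRIM16 fell at 24 h (-0.89) and TRIM37 at 6 h (-0.95), both in WT cells. The KO call of TRIM17 was lost in 4 of 6 fits that left out 1 library (0.81 to 0.95), that of TRIM16 in 4 of 6 (-0.91 to -0.74), and that of TRIM37 without the second vehicle (-0.71) or the third stimulated replicate (-0.66). In the paired fit TRIM16 also passed in WT cells at 6 h (-0.83, adjusted p = 0.02) and 12 h (-0.76, adjusted p = 0.0309).

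Of the 10 members in no other group, TRIM58 was called in the most comparisons with vehicle, 5 of the 6. TRIM58 is an erythroid ligase of late red-cell maturation. TRIM58 in stimulated KO cells read 6.61, 6.56 and 6.18 (6 h), 5.51, 5.02 and 5.16 (12 h) and 4.45, 3.32 and 4.19 (24 h). TRIM58 in vehicle-treated KO cells read 6.99, 7.27 and 6.43 (6 h), 6.93, 6.46 and 6.64 (12 h) and 6.44, 6.07 and 6.48 (24 h). In KO cells the treatments overlapped at 6 h and were furthest apart at 24 h. TRIM58 in stimulated WT cells read 4.31, 5.17 and 4.18 (6 h), 4.08, 4.06 and 4.01 (12 h) and 3.21, 3.63 and 2.42 (24 h). TRIM58 in vehicle-treated WT cells read 5.18, 5.56 and 5.80 (6 h), 5.01, 6.06 and 5.06 (12 h) and 4.97, 5.71 and 4.83 (24 h). The WT groups were apart at all 3 times, with the second stimulated replicate at 6 h almost reaching vehicle. The changes of TRIM58 with stimulation (standard error 0.35) were -0.44, -1.44 and -2.34 in KO cells, with adjusted p-values of 0.333, 0.00165 and 3.94e-06. In WT cells those of TRIM58 were -0.96, -1.32 and -2.08, with adjusted p-values of 0.0309, 0.00338 and 1.75e-05. The KO response was more negative at 24 h than at 6 h, by -1.90 ± 0.49 (adjusted p = 0.0175), which was lost without the second KO replicate stimulated for 24 h (-1.56) or the third vehicle KO replicate at 6 h (-1.67). The WT call at 6 h was lost in 4 of the fits that left out 1 library, without the first (-0.84) or the third (-0.77) stimulated or the second (-0.94) or the third (-0.82) vehicle replicate.

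The remaining calls were few. TRIM62 rose at 12 h in both genotypes (1.30 in KO cells and 1.10 in WT cells), and TRIM41 rose at 24 h in both (0.61 in KO cells and 0.66 in WT cells). Without the third KO vehicle replicate (1.11) or in 5 of 6 fits that left out 1 WT library (0.87 to 1.14) the TRIM62 calls were lost. Those of TRIM41 were lost in 4 such fits in KO cells (0.44 to 0.61) and in WT cells without the second stimulated replicate (0.42). TRIM52 fell at 6 h, by 1.41 in KO cells and 1.07 in WT cells, and the KO value was -0.78 without the second stimulated replicate, a library that stands apart. The WT call of TRIM52 was lost without the third vehicle replicate (-0.92), and its 12 h change in KO cells (-0.87) passed in the paired fit alone (adjusted p = 0.0137). TRIM7 fell in KO cells at 6 h and 12 h, by 3.48 and 1.91. TRIM10 rose in WT cells at 6 and 12 h in the test (adjusted p = 0.024 and 0.0144), but it is listed at 0 in some libraries. Its 6 h call was lost in 5 of 6 fits that left out 1 library (2.34 to 3.20) and its 12 h call without the second stimulated replicate (2.57). TRIM10 read 4.91, 4.68 and 0 in stimulated WT cells at 6 h, against 0.00068, 0.0018 and 0 with vehicle. At 12 h TRIM10 read 1.79, 5.19 and 3.37 in stimulated WT cells, against 0.01, 0.00075 and 0 with vehicle. Its 6 libraries at or above the floor of 3.32 were all stimulated ones, so it was tested only through the groups where it is high, and these values are a description. The same holds for TRIM54, a muscle member that reached the floor in 3 libraries, all given vehicle for 6 h. TRIM54 read 1.29, 2.31 and 0.43 in KO cells stimulated for 6 h, against 2.55, 5.15 and 3.15 with vehicle. In WT cells at 6 h TRIM54 read 2.79, 2.22 and 1.83 with stimulation, against 4.09, 4.09 and 3.09 with vehicle. The other 2 muscle members tested, TRIM63 and TRIM72, and TRIM35 and TRIM47 passed in no comparison with vehicle. TRIM73 and TRIM74, paralogues between which the split of reads is uncertain, passed in the paired fit alone, at 6 h in KO cells (-1.13 and -1.19, adjusted p = 0.0444 and 0.0465).

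**Figure D3:**
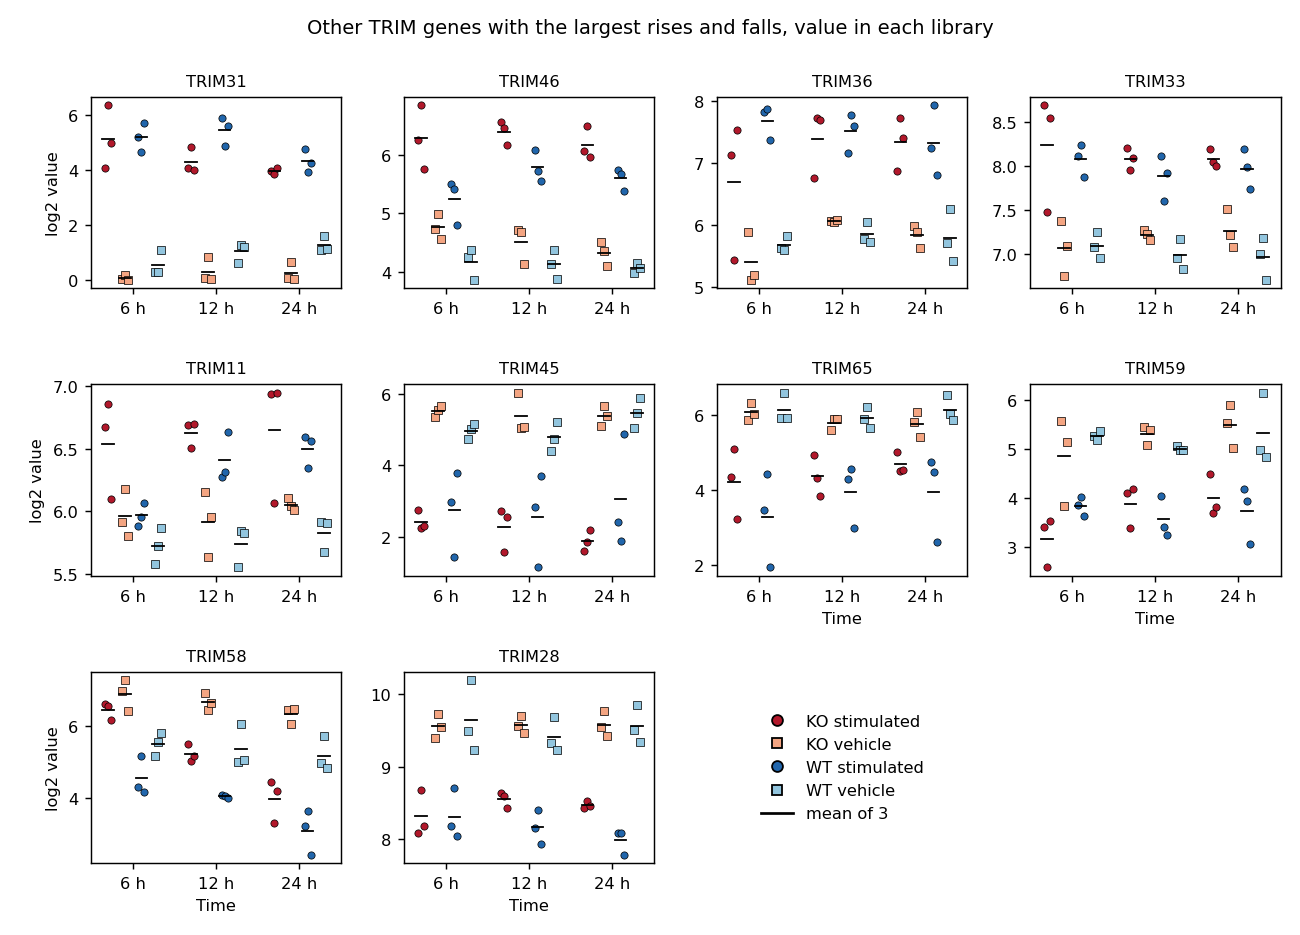
Log2 value in each of the 36 libraries (points) with the mean of 3 (lines) for the TRIM genes outside the virus-restriction group that were called in the same direction in at least 4 of the 6 comparisons with vehicle, 5 that rose (TRIM31, TRIM46, TRIM36, TRIM33, TRIM11) and 5 that fell (TRIM45, TRIM65, TRIM59, TRIM58, TRIM28), by time and group. TRIM31 reads 1.61 or less in every vehicle library and 3.86 or more in every stimulated one.

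The response changed with time for few members. In KO cells 1 member had a more positive response at 24 h than at 6 h (TRIM8) and 1 a more negative one (TRIM58), against 6.75% of all genes tested called in either direction (3.35% more positive and 3.41% more negative). In WT cells 2 members had a more positive response at 24 h (TRIM69 and TRIM38), against 9.64% of all genes tested (4.38% more positive and 5.26% more negative). The KO count was 1 without the first vehicle replicate at 24 h or the third at 6 h, 0 without the second stimulated replicate at 24 h, and 4 without the second stimulated replicate at 6 h.

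In the main fit, which has no replicate block, few members differed between KO and WT cells. Those called lower in KO cells with vehicle were mostly of the virus-restriction group. That group was drawn up with earlier results of these data known, so its share of the calls is a description. With vehicle, KO cells had 1 member higher and 5 lower than WT cells at 6 h, 1 higher and 2 lower at 12 h, and 0 higher and 2 lower at 24 h. Among all genes tested, 8.19%, 5.24% and 3.98% were called in those comparisons, with 4.28%, 2.9% and 2.23% higher and 3.91%, 2.34% and 1.75% lower. With stimulation 3 members were higher and 3 lower in KO cells at 6 h, 1 higher and 2 lower at 12 h, and 1 higher and 1 lower at 24 h, against a background of 8.71%, 3.45% and 5.87%, of which 4.86%, 1.78% and 3.41% were higher and 3.86%, 1.68% and 2.46% lower. The members' shares of 11.5%, 5.77% and 3.85%, the same with vehicle and with stimulation, were near these backgrounds. KO and WT libraries did not overlap, in either direction, for 20.7% to 25.6% of all genes tested, depending on the comparison. In all, 11 members were called in at least 1 of the 6 genotype comparisons (21.2%, against 19.8% of all genes tested) and 6 in at least 2 (11.5%, against 8.26%): TRIM22, TRIM26, TRIM38, TRIM58, TRIM8 and TRIM44. In a paired fit with the replicate number as a block, the counts were 8 at 12 h and 7 at 24 h with vehicle, and 5 at 12 h and 7 at 24 h with stimulation. With vehicle that fit added TRIM69 (0.0244), TRIM38 (0.0294), TRIM14 (0.0226), TRIM27 (0.0336) and TRIM8 (0.0192) at 12 h, with adjusted p in brackets. At 24 h it added TRIM5 (0.0364), TRIM8 (0.0238), TRIM16 (0.0338), TRIM47 (0.0127) and TRIM58 (0.0319). With stimulation it added TRIM58 (0.0309) and TRIM32 (0.0132) at 12 h, and TRIM8 (0.00574), TRIM28 (0.0282), TRIM32 (0.0219), TRIM35 (0.0289) and TRIM46 (0.0497) at 24 h. The backgrounds above belong to the main fit and do not apply to the paired fit. The share of all genes called in the paired fit is not given here, so its higher counts are not read as a result about the members.

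Single libraries moved these counts. With vehicle the 6 h count was 3 without the first WT or the third KO replicate. The 12 h count with vehicle was 0 without the first or the third KO replicate, 1 without the first or the second WT replicate, and 6 without the second KO replicate. The 24 h count with vehicle was 0 without the first or the third KO replicate and 1 without the first or the third WT replicate. With stimulation the 12 h count was 0 without the first or the third replicate of either genotype. The 24 h count with stimulation was 1 without the first or the third KO or the first WT replicate, and 5 without the second KO replicate. With only the libraries compared fitted, no member passed with stimulation at any time, nor with vehicle at 12 or 24 h.

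With vehicle, 4 of the 11 virus-restriction members were lower in KO cells at 6 h (TRIM22, TRIM26, TRIM38 and TRIM14), 2 at 12 h and 2 at 24 h (TRIM22 and TRIM26), and none was higher. From the library values above, the KO minus WT difference of TRIM22 was -2.67 at 6 h, -2.40 at 12 h and -2.43 at 24 h (standard error 0.59, adjusted p = 0.0037, 0.0126 and 0.0147). At 12 h the KO and WT vehicle libraries of TRIM22 overlapped, and at 6 and 24 h they did not. The difference of TRIM26 was -1.21, -0.82 and -0.78 (standard error 0.22, adjusted p = 0.000568, 0.0229 and 0.0383). TRIM14 differed at 6 h by -1.32 (adjusted p = 0.0105), and at 12 and 24 h its differences of -1.00 and -0.62 did not pass. TRIM39, a regulator of apoptosis and NF-κB named after its values were seen, differed at 6 h by -0.89 (adjusted p = 0.0432), which was lost in 5 of 6 fits that left out 1 library (-1.03 to -0.81).

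Markers of macrophages moved with the genotype in the same vehicle libraries. CD68 and LYZ were lower in KO cells at each time, SPI1 at 6 h (-1.15), and CD14 at 12 and 24 h (-2.27 and -2.23), so 3 of the 10 markers were lower at each time, with list medians of -1.07, -0.59 and -0.63. With stimulation 3, 2 and 1 of the 10 were lower at 6, 12 and 24 h, from CD68, LYZ and CSF1R. Of the other marker lists, KRT18 of the epithelial list was higher in KO cells with vehicle at 6 h (2.15) and 12 h (1.86), and VWF of the endothelial list was lower at 6 h (-1.55). With stimulation COL1A1 of the fibroblast list was lower at each time (-3.23, -2.93 and -2.46). At 6 h with stimulation CD79A (lymphocyte, 2.34) and MAP2 (neuron, 2.25) were higher and MYH7 (muscle, -1.59) lower, and at 24 h ACTN2 (muscle, -2.55) was lower. The part of these markers in the TRIM differences was not tested.

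These vehicle calls at 12 and 24 h depended on single libraries. TRIM22 at 12 h was lost without the first (-2.00) or the third (-1.92) KO replicate or the second WT replicate (-1.78). At 24 h it was lost without the first (-2.08) or the third (-2.02) KO or the second (-2.18) or the third (-2.43) WT replicate. TRIM26 at 12 h was lost without the first (-0.79) or the third (-0.75) KO or the first (-0.78) or the second (-0.80) WT replicate, and at 24 h without the same libraries (-0.75, -0.73, -0.76 and -0.67). The 6 h calls of both genes were kept in every such fit, whereas TRIM14 at 6 h was lost without the third KO replicate (-1.18). With only the libraries compared fitted, the 6 h call of TRIM26 was lost (adjusted p = 0.0839).

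TRIM38 was lower in KO cells with stimulation at all 3 times, with KO minus WT differences of -0.76, -0.71 and -0.82 (standard error 0.20, adjusted p = 0.0131, 0.0389 and 0.0131). Its stimulated KO and WT libraries did not overlap at any time. With vehicle the difference was -0.76, -0.60 and -0.34, of which the 6 h value passed (adjusted p = 0.0125). The vehicle call was lost without the third KO (-0.68) or the first WT replicate (-0.65). The stimulated call was lost at 6 h without the first (-0.68) or the second (-0.73) WT replicate. At 12 h it was lost without the first (-0.59) or the third (-0.69) KO or the first (-0.59) or the third (-0.72) WT replicate, and at 24 h without the first (-0.77) or the third (-0.74) KO or the first (-0.69) WT replicate.

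TRIM8 was called lower in KO cells in stimulated groups. TRIM8 in stimulated KO cells read 6.30, 6.57 and 6.05 (6 h), 6.20, 6.51 and 6.16 (12 h) and 6.94, 7.34 and 6.78 (24 h). TRIM8 in vehicle-treated KO cells read 7.29, 7.47 and 6.87 (6 h), 7.04, 7.09 and 7.00 (12 h) and 6.45, 6.83 and 6.72 (24 h). In KO cells stimulated values lay below vehicle values at 6 and 12 h and near or above them at 24 h. TRIM8 in stimulated WT cells read 7.01, 7.76 and 6.87 (6 h), 6.87, 7.45 and 7.04 (12 h) and 7.53, 8.20 and 7.53 (24 h). TRIM8 in vehicle-treated WT cells read 7.47, 7.33 and 7.34 (6 h), 7.62, 7.89 and 7.48 (12 h) and 7.16, 7.33 and 7.33 (24 h). Stimulated KO libraries lay below all stimulated WT libraries of the same time. The KO minus WT difference with stimulation was -0.90, -0.83 and -0.73 (standard error 0.23, adjusted p = 0.0126, 0.0399 and 0.0558). With vehicle it was -0.17, -0.62 and -0.61 and did not pass (adjusted p = 0.757, 0.134 and 0.16). The KO libraries lay below the WT libraries at 12 and 24 h, where 25.2% and 23% of all genes tested were apart in either direction. The calls were lost at 6 h without the third KO (-0.78) or the second WT replicate (-0.63), and at 12 h without the first (-0.79) or the third (-0.77) KO or the first (-0.96), second (-0.67) or the third (-0.87) WT replicate. The KO response itself was more positive at 24 h than at 6 h by 1.26 ± 0.33 (adjusted p = 0.0176), which was lost without the first vehicle KO replicate at 24 h (1.16) or the second stimulated one (1.10).

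TRIM58 and TRIM44 were higher in KO cells. TRIM58 differed with stimulation by 1.90, 1.18 and 0.90 (adjusted p = 0.00068, 0.0549 and 0.122) and with vehicle by 1.38, 1.30 and 1.16 (adjusted p = 0.0105, 0.0229 and 0.0558, standard error 0.35). The vehicle calls of TRIM58 were lost at 6 h without the second KO (1.19) or first WT replicate (1.21). At 12 h they were lost without the first (1.17) or the third (1.32) KO or the first (1.12) or the third (1.14) WT replicate. TRIM44 lacks a RING and can act as a deubiquitinating partner. TRIM44 in stimulated KO cells read 9.51, 8.78 and 9.53 (6 h), 9.04, 8.76 and 9.23 (12 h) and 9.06, 8.88 and 8.95 (24 h). TRIM44 in vehicle-treated KO cells read 8.80, 8.33 and 8.77 (6 h), 8.78, 8.77 and 8.77 (12 h) and 8.74, 8.66 and 8.81 (24 h). The second stimulated KO replicate at 6 h, a library that stands apart, was the lowest of its 3, and the KO treatments overlapped at 6 and 12 h. TRIM44 in stimulated WT cells read 8.60, 8.77 and 8.76 (6 h), 8.12, 8.40 and 8.28 (12 h) and 8.03, 8.25 and 7.79 (24 h). TRIM44 in vehicle-treated WT cells read 8.09, 8.40 and 8.09 (6 h), 8.15, 8.74 and 8.21 (12 h) and 8.41, 8.39 and 8.15 (24 h). At each time every stimulated KO library lay above every stimulated WT library, at 6 h only just. The TRIM44 difference with stimulation was 0.56, 0.74 and 0.94 (standard error 0.19, adjusted p = 0.0648, 0.0255 and 0.00406). Its 12 h call was lost without the first (0.73) or the third (0.64) KO or the first (0.67) or the third (0.75) WT replicate, and its 24 h call was kept in every such fit. With only the libraries compared fitted, the 24 h call was lost (adjusted p = 0.177).

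At 6 h with stimulation TRIM46 was higher in KO cells by 1.05 (adjusted p = 0.0119), and the value without the second KO replicate, which stands apart, was 0.77 and did not pass. It also failed without the third WT replicate (0.82). TRIM67, named after its values were seen, was higher by 2.23 (adjusted p = 0.0258), which was lost without the first or the third KO (1.93 and 2.12) or WT replicate (2.19 and 1.97). TRIM71 was lower in KO cells, with a difference of -4.20 (adjusted p = 0.0039), with KO libraries listed at or near 0. It passed the filter only through its stimulated WT libraries, where it is high, so this p-value is a description. The plot of KO minus WT differences shows these genes over time.

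**Figure D4:**
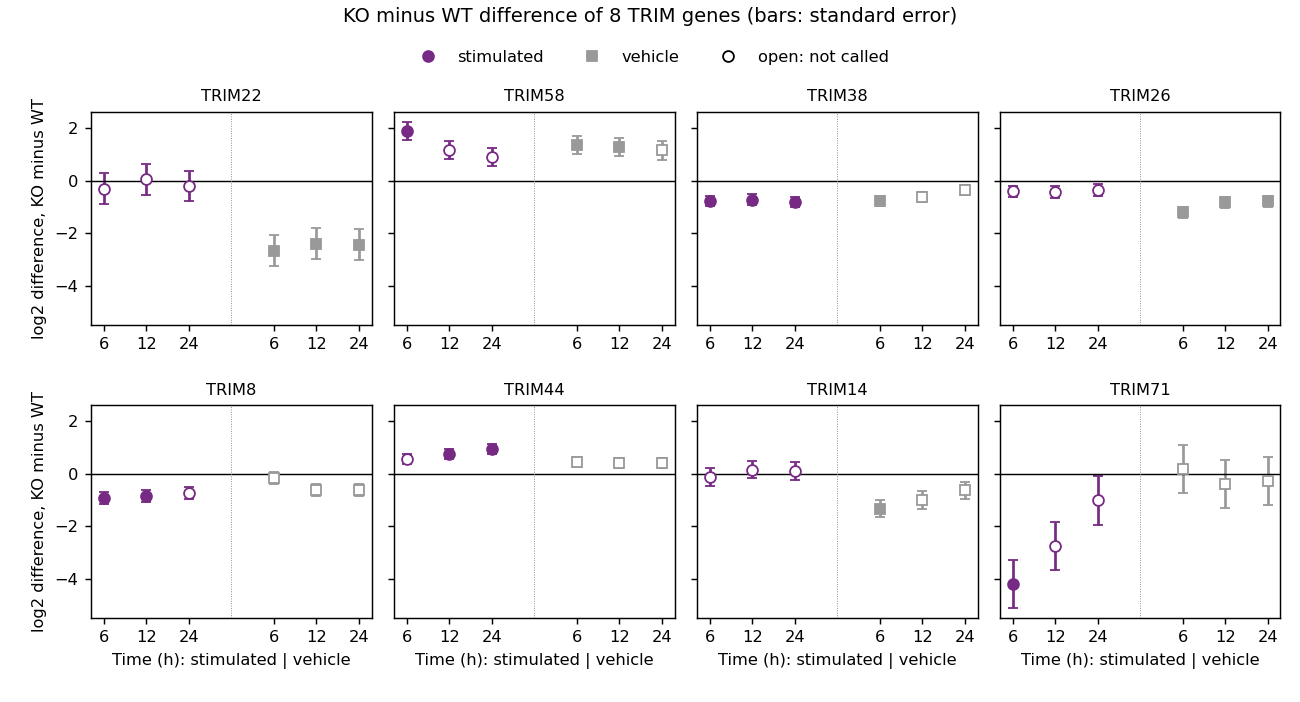
KO minus WT difference (log2, with standard error bars) of 8 TRIM genes at 6, 12 and 24 h, stimulated on the left and vehicle on the right of each panel, with open symbols where the adjusted p was 0.05 or more. TRIM22 lies at -2.67, -2.40 and -2.43 with vehicle and at -0.31, 0.06 and -0.20 with stimulation.

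Whether the response to the stimulus differed between the genotypes was tested by the interaction, the KO change minus the WT change. At single times 0 of the 52 members were called (limma, adjusted p), with 7, 4 and 5 members at an unadjusted p below 0.05 at 6, 12 and 24 h. These are 13.5%, 7.69% and 9.62% of the members, against 8.31%, 7.07% and 12.2% of all genes tested. By adjusted p 0.452%, 0.16% and 0.433% of all genes tested were called. Of these, as shares of all genes tested, 0.283%, 0.0612% and 0.174% were called with a more positive KO response and 0.17%, 0.0989% and 0.259% with a more negative one. Averaged over the 3 times 7 members were called, 5 with a more positive response in KO cells and 2 with a more negative one, which is 13.5% of the members against 6.24% of all genes tested (3.32% more positive and 2.92% more negative). Of the 5, 4 were virus-restriction members: TRIM22, TRIM69, TRIM14 and TRIM34. As the group was drawn up with earlier results of these data known, this count is a description.

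TRIM22 had a mean change of 6.33 in KO cells and 3.97 in WT cells, an interaction of 2.35 ± 0.48 (adjusted p = 0.0026). Its group means differed between the genotypes by -0.31, 0.06 and -0.20 with stimulation and by -2.67, -2.40 and -2.43 with vehicle. For TRIM69 the means were 5.87 in KO cells and 4.71 in WT cells, an interaction of 1.16 ± 0.26 (adjusted p = 0.00646). With a pseudocount of 5 the TRIM69 interaction was 0.64 and did not pass (adjusted p = 0.0532). All vehicle libraries of TRIM69 lay below the floor of the filter, so its interaction is a description. TRIM14 changed by 1.15 in KO cells and 0.11 in WT cells on average, an interaction of 1.04 ± 0.27 (adjusted p = 0.0188). TRIM34 changed by 1.86 in KO cells and 1.09 in WT cells, an interaction of 0.76 ± 0.23 (adjusted p = 0.0433). The mean KO minus WT differences were -0.98 with vehicle and 0.05 with stimulation for TRIM14, and -0.73 and 0.03 for TRIM34. For TRIM69 they were -0.75 and 0.41. The TRIM34 call was lost in 25 of the 36 fits that left out 1 library, with values between 0.67 and 0.78, and without both libraries that stand apart (0.70).

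TRIM27 also had a positive interaction, but it fell less in KO cells (mean change -0.22) than in WT cells (-0.90) and did not rise. Its mean KO minus WT difference was -0.65 with vehicle and 0.03 with stimulation. TRIM27 in stimulated KO cells read 4.37, 4.82 and 4.65 (6 h), 5.07, 4.80 and 4.54 (12 h) and 5.20, 5.04 and 5.02 (24 h). TRIM27 in vehicle-treated KO cells read 4.82, 5.18 and 4.98 (6 h), 4.91, 5.07 and 5.10 (12 h) and 5.13, 5.22 and 5.10 (24 h). The KO groups overlapped at 12 and 24 h and nearly met at 6 h. TRIM27 in stimulated WT cells read 4.92, 5.09 and 4.54 (6 h), 4.93, 4.99 and 4.58 (12 h) and 5.03, 5.06 and 4.09 (24 h). TRIM27 in vehicle-treated WT cells read 5.58, 5.75 and 5.45 (6 h), 5.89, 5.67 and 5.62 (12 h) and 5.81, 5.74 and 5.86 (24 h). In WT cells all stimulated libraries lay below the vehicle ones. The TRIM27 interaction was 0.68 ± 0.19 (adjusted p = 0.027), and it was lost in 1 of the 36 fits, without the first KO replicate stimulated for 12 h (0.64).

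TRIM7 and TRIM71 had a more negative response in KO cells, and both include libraries listed at 0. TRIM7 in stimulated KO cells read 3.71, 2.40 and 0 (6 h), 3.39, 1.87 and 2.01 (12 h) and 3.28, 3.26 and 2.41 (24 h). TRIM7 in vehicle-treated KO cells read 5.15, 5.69 and 5.71 (6 h), 4.85, 3.31 and 4.86 (12 h) and 4.86, 4.98 and 3.05 (24 h). The third stimulated KO replicate at 6 h is listed at 0, and in KO cells the treatments overlapped at 12 and 24 h. TRIM7 in stimulated WT cells read 4.60, 3.46 and 3.55 (6 h), 3.93, 3.75 and 4.82 (12 h) and 4.56, 3.87 and 5.22 (24 h). TRIM7 in vehicle-treated WT cells read 4.48, 3.49 and 3.72 (6 h), 4.47, 4.25 and 5.03 (12 h) and 4.54, 4.88 and 5.45 (24 h). The WT groups overlapped at every time. The TRIM7 interaction was -1.95 ± 0.53 (adjusted p = 0.0248). Its KO call at 12 h was lost without the first (-1.66) or the third (-1.66) vehicle or the second (-1.64) or the third (-1.71) stimulated replicate.

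TRIM71 values scattered more than those of the other genes named. TRIM71 in stimulated KO cells read 0, 0.02 and 0 (6 h), 1.58, 0.0044 and 1.58 (12 h) and 1.22, 2.30 and 1.97 (24 h). TRIM71 in vehicle-treated KO cells read 3.90, 0 and 1.86 (6 h), 3.08, 1.65 and 0 (12 h) and 3.16, 0.01 and 2.91 (24 h). The KO groups overlapped at each time, with libraries at or near 0 in both treatments. TRIM71 in stimulated WT cells read 5.59, 3.32 and 3.71 (6 h), 3.49, 4.01 and 3.95 (12 h) and 2.51, 3.04 and 2.96 (24 h). TRIM71 in vehicle-treated WT cells read 1.51, 3.69 and 0 (6 h), 1.74, 2.66 and 1.51 (12 h) and 3.28, 1.84 and 1.76 (24 h). At 6 h and 24 h the WT groups overlapped, and at 12 h they were apart. The interaction of TRIM71 was -2.50 ± 0.75 (adjusted p = 0.0428), lost in 23 of the 36 fits that left out 1 library, with values between -2.55 and -2.17, and without both libraries that stand apart (-2.48). TRIM71 was tested only through its stimulated WT libraries, so this interaction is a description. The plot of the mean responses shows all 52 members.

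**Figure D5:**
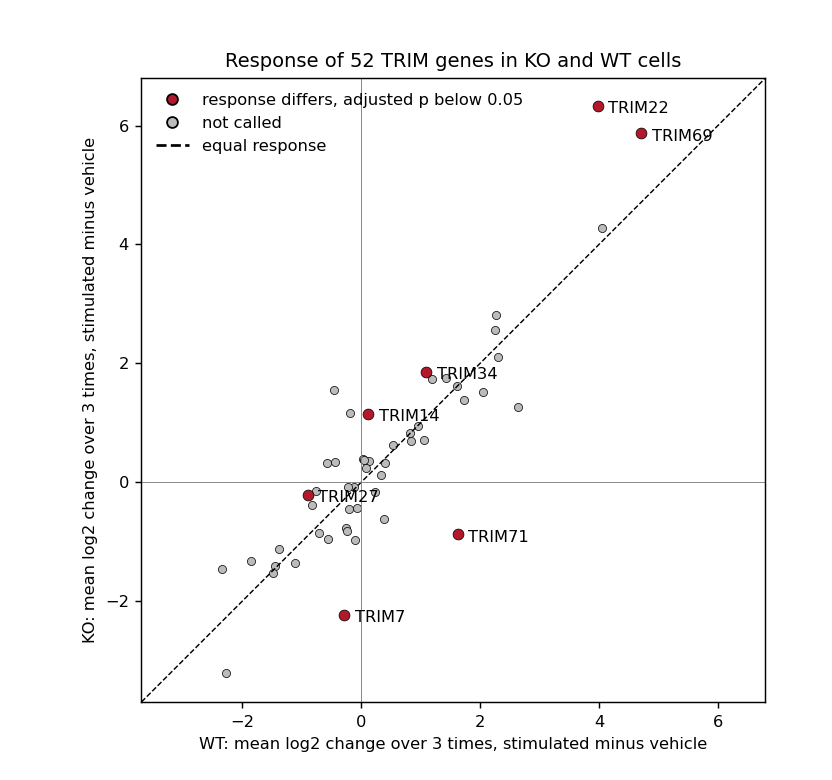
Mean log2 change over 6, 12 and 24 h (stimulated minus vehicle) of the 52 TRIM genes tested, in KO cells (vertical axis) against WT cells (horizontal axis), with the 7 genes whose response differed in red and the line of equal response dashed. TRIM22 lies at 6.33 in KO cells and 3.97 in WT cells, above the line, and TRIM7 and TRIM71 lie below it.

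Genes that resemble TRIM genes or work with them were counted from lists of their own. As background for these counts and those of the next lists, 15.5% to 17.3% of all genes tested were called up in KO cells and 19.5% to 22.5% down. In WT cells 15.1% to 20.2% were called up and 20.9% to 26.1% down. Of 8 TRIM-like genes of other names, 5, 4 and 5 rose in KO cells at 6, 12 and 24 h with 0, 1 and 0 falling, and 5, 4 and 4 rose in WT cells with 1, 2 and 0 falling. PML, the organiser of nuclear bodies, rose by 3.06, 3.09 and 3.35 in KO cells and 3.41, 3.32 and 3.40 in WT cells. MEFV, the pyrin inflammasome sensor, rose by 3.17, 2.88 and 2.82 in KO cells and 2.39, 1.94 and 2.23 in WT cells. FSD1L rose by 4.28, 2.62 and 2.48 in KO cells and 5.39, 3.26 and 1.81 in WT cells. BSPRY, a B-box and SPRY protein, rose by 2.92, 2.45 and 1.74 in KO cells and 3.67, 3.41 and 2.55 in WT cells. With vehicle BSPRY was higher in KO cells by 2.39, 1.78 and 1.75.

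Of 16 ubiquitin-conjugating enzymes and co-ligases, 5 rose and 3 fell in KO cells at each time, and 5 rose in WT cells at each time with 3, 3 and 4 falling. The falls in this list were near the share of all genes called down. UBE2L6, the conjugating enzyme of the interferon-induced modifier ISG15, rose by 3.40, 3.21 and 3.42 in KO cells and 2.56, 2.47 and 2.48 in WT cells, with a mean interaction of 0.84 (adjusted p = 0.0209). RNF125, a ligase that targets RIG-I for degradation, fell by 4.49, 3.73 and 2.72 in KO cells and by 4.26, 4.49 and 4.06 in WT cells. Of 25 sensors, adaptors and kinases, 15 rose in KO cells at each time, with 0, 1 and 1 falling, and 15, 15 and 16 rose in WT cells, with 0, 1 and 2 falling. RIGI, the sensor that TRIM25 modifies, rose by 5.59, 5.24 and 5.38 in KO cells and 4.80, 4.38 and 4.90 in WT cells. IFIH1, which encodes MDA5, the substrate of TRIM65, rose by 4.71, 5.03 and 5.61 in KO cells and 4.37, 4.10 and 4.64 in WT cells. Of 10 interferon-response transcription factors, 10, 9 and 9 rose in each genotype at 6, 12 and 24 h and none fell.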

How the data were processed

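The 36 libraries of total RNA had been made from cells by column extraction and a ribosomal RNA depletion kit, per the labels' protocols. The authors deposited 1 table of log2 expression values, 21599 Entrez Gene rows by 36 libraries, used here without further scaling. Per the submitters' processing notes, cutadapt 1.9.1, GSNAP and build GRCh37.p5 were used. The counting, strand setting, annotation, normalization and offset are not given in the sources used here. Library medians lay between 5.4691 and 5.4753, and 7744 values were exactly 0. The table holds no counts, so depth is unknown and no interval from depth is given. Of the rows, 20609 matched a current symbol and 990 did not.

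Rows at or above log2(10), 3.32, in at least 3 libraries were kept (21232, with 367 removed). A linear model of the 12 group means over the 36 libraries was fitted in limma 3.58.1 (R 4.3.3) with a mean-variance trend. It had 24 residual degrees of freedom, and the prior degrees of freedom had a median of 4.45. There were 18 comparisons, each adjusted by Benjamini-Hochberg over all rows kept, with a threshold of 0.05. Errors after ± are standard errors of the fitted difference. The fit was tested on simulated data. The members and lists were chosen with earlier results of these data known. Genes given in full are the virus-restriction group, other members called in the same direction in at least 4 of the 6 comparisons with vehicle (5 that rose and 5 that fell), members called in at least 2 genotype comparisons, and members called for the mean interaction or between times.

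Replicate numbers come from the labels. Deviations of same-numbered libraries from their group means correlated at over 0.1 in every pair in 9 of the 12 comparisons of 2 groups (range over all -0.15 to 0.589). The numbers were taken to pair libraries in those 9, and not in KO stimulated against vehicle at 24 h or KO against WT at 6 h. The main fit holds no replicate block, so its counts and p-values leave this pairing out. Calls that the paired fit changed are given as such. Alternatives were another scaling, filter, pseudocount, variance trend, replicate block and set of libraries. Promoters were read from RefSeq windows of GRCh38.p14, a later build than that of the authors, so no coordinates of the 2 were mixed.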

Additional observations from a re-analysis of the deposited data

Results flagged for a closer look

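Of the TRIM genes, 7 differed between KO and WT cells in their response to stimulation averaged over the 3 times, by the test of that difference (limma, adjusted p). The KO change minus the WT change was 2.35 ± 0.48 for TRIM22 (adjusted p = 0.0026), 1.16 ± 0.26 for TRIM69 (adjusted p = 0.00646, and 0.64 with an adjusted p of 0.0532 with a pseudocount of 5), 1.04 ± 0.27 for TRIM14 (adjusted p = 0.0188) and 0.76 ± 0.23 for TRIM34 (adjusted p = 0.0433). TRIM27 differed by 0.68 ± 0.19 (adjusted p = 0.027), with a smaller fall in KO cells. On average TRIM22, TRIM14, TRIM34 and TRIM27 differed between the genotypes with vehicle, where KO cells were lower, more than with stimulation. TRIM71 differed by -2.50 ± 0.75 (adjusted p = 0.0428) and TRIM7 by -1.95 ± 0.53 (adjusted p = 0.0248).

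A further 4 differences were between times. The change with stimulation at 24 h minus that at 6 h was -1.90 ± 0.49 for TRIM58 (adjusted p = 0.0175) and 1.26 ± 0.33 for TRIM8 (adjusted p = 0.0176), both in KO cells. In WT cells it was 2.03 ± 0.46 for TRIM69 (adjusted p = 0.00513) and 1.18 ± 0.28 for TRIM38 (adjusted p = 0.00723). TRIM69 passed the filter only through its stimulated libraries, so its differences between genotypes and between times are a description. The same holds for the genotype difference of TRIM71, which passed only through its stimulated WT libraries. Groups of 3 libraries are too small for a test of single outlying libraries.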

How the results depend on the processing

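No call of a member changed sign under the alternatives run (178 calls, of which the stricter filter kept 94 to test). Of the 178, none was lost with quantile normalization, median centring, no filter or the replicate block, 2 were lost without the variance trend, and 2 with a pseudocount of 5 (TRIM26 with vehicle at 24 h, -0.65, and the TRIM69 mean interaction, 0.64). Fitting only the libraries compared lost 50, and leaving out both libraries that stand apart, chosen after seeing the data, lost 6. A stricter filter, which left 21 members, gave 15, 13 and 13 members called with stimulation at 6, 12 and 24 h in KO cells and 12, 12 and 13 in WT cells. It gave 3, 1 and 1 for KO against WT with vehicle, 2 with stimulation at 6 h, 3 for the mean interaction and 1 for KO cells at 24 h against 6 h. The replicate block gave 12, 8 and 7 for KO against WT with vehicle, 5 and 7 with stimulation at 12 and 24 h, 1 for the interaction at 6 h and 11 for its mean. The libraries compared alone gave 2, 0 and 0 with vehicle, 0, 0 and 0 with stimulation, and 0 in KO cells and 1 in WT cells for 24 h against 6 h. Without both libraries that stand apart the counts were 11, 5 and 5 with vehicle, 1 for the interaction at 6 h and 4 for KO cells at 24 h against 6 h. The causes were not tested, apart from the fewer genes or libraries each fit holds. The shares of all genes called in these alternative fits are not given here, so their counts are not read as results about the members.

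With 1 library left out, the calls with stimulation at 6, 12 and 24 h ran 23 to 25, 20 to 23 and 17 to 21 in KO cells and 21 to 22, 21 to 25 and 22 to 26 in WT cells. KO against WT ran 3 to 6, 0 to 6 and 0 to 3 with vehicle and 4 to 8, 0 to 3 and 1 to 5 with stimulation. The interaction ran 0 to 1, 0 to 1 and 0 to 0, reaching 1 at 6 h without the first or second stimulated KO replicate and at 12 h without the second vehicle KO replicate, and its mean 5 to 9. For 24 h against 6 h the counts ran 0 to 4 in KO cells and 2 to 3 in WT cells. Depth is unknown, so the precision of low members such as TRIM7, TRIM10 and TRIM71, with libraries at 0, cannot be stated.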

Other observations

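TRIML2, a TRIM-like gene outside the name rule, was called in opposite directions with stimulation in the 2 genotypes, and was picked out after its values were seen. In KO cells at 24 h it read 2.85, 2.50 and 3.89 with stimulation, against 0, 1.88 and 0 with vehicle, a change of 2.45 ± 0.67 (limma, adjusted p = 0.00452). In WT cells at 12 h it read 0.0017, 0.0049 and 1.07 with stimulation, against 2.24, 3.53 and 2.29 with vehicle, a change of -2.33 ± 0.67 (adjusted p = 0.0071). The mean interaction was 2.44 ± 0.55 (adjusted p = 0.00603). All of these values are low, and several libraries list the gene at or near 0.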
